A study of Mus musculus with 11 samples.

Results

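The genes described here make cholesterol and fatty acids, or control that synthesis, in the mouse retina. They are 32 genes taken by symbol from the count table of 47069 Ensembl genes, and all 32 were among the 18188 genes with enough counts to be tested. By role they comprise 7 genes of the mevalonate pathway, 3 genes that make squalene and lanosterol, 8 genes that turn lanosterol into cholesterol, 4 regulators, 1 sterol carrier, 2 genes of fatty acid synthesis, 4 desaturases and 3 elongases. The rule names the genes by symbol and uses no measured value, but the genes were chosen with earlier results of these data known.

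RNA-seq was done on dissociated C57BL/6 mouse retinas of 2 genotypes at 2 ages, and by its title the study asked whether correlated retinal activity around birth is needed to wire visual axons. In the Brn3b-Kir2.1 group, Brn3b-cre drives human Kir2.1, a potassium channel that lowers excitability, fused to the fluorescent protein eYFP, from a transgene with a CAG promoter behind a floxed STOP cassette. The control group is wild type in the genotype field and Brn3b-cre in the extraction protocol, so whether the controls also carried Cre cannot be told from the labels. The groups were wild type at P4 (2 libraries), Kir2.1 at P4 (3), wild type at P8 (3) and Kir2.1 at P8 (3), where the later age is postnatal day 8 in the age field and P11 in the protocol. Brn3b-cre acts in retinal ganglion cells, and the source field names those cells, but the protocol describes whole retinas with no sorting step. The labels do not say that the libraries of a group came from separate animals, so the p-values below measure only the spread between these libraries.

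Cholesterol synthesis starts from acetyl-CoA, runs through mevalonate and isoprenoids to squalene and lanosterol, and ends in a series of reductions and demethylations. Its genes are controlled together by the transcription factor SREBP-2, which the INSIG proteins hold in the endoplasmic reticulum when sterols are plentiful, while SREBP-1 acts mainly on fatty acid genes. The retina makes much of its own cholesterol, and photoreceptor outer segments are rich in very long polyunsaturated fatty acids, which elongases and desaturases build.

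Promoter windows were set beside the expression data because sterol genes are controlled in common. RefSeq windows (GRCm38.p6), which run from 250 bases before to 50 bases after the start site, were at hand for 25 of the 32 genes. A sterol regulatory element core (TCACNCCAC, either strand) was in the window of 1 of these 25 genes, Hmgcs1 (4%), against 1.44% of the 27025 genes with a window and 1.24% of all 32851 windows of the same length. Only this exact pattern was searched, and sequences that differ from it by a base were not counted, so other forms of the element may be present. The CCAAT box (either strand), the site read by NF-Y, was in the windows of 20 of the 25 genes (80%), against 41.1% of genes and 37.4% of windows. Among the genes that turn acetyl-CoA into cholesterol, 14 of 15 with a window held it. The 5 genes without it were Acat2, Acaca, Fads2, Elovl6 and Elovl2. The Acaca window (chr11:84195188-84195487, plus strand) lies inside the gene, which begins at 84129672, so the promoter at its upstream end was not examined. The windows of 4 genes that fell from P4 to P8 in Kir2.1, of which Hmgcs1 also fell in wild type, and that of Elovl4, which rose in both, are shown 5′ to 3′ on the strand of the gene. Capitals mark CCAAT, its reverse complement ATTGG, and in Hmgcs1 the element core, which does not overlap a CCAAT box there.
Hmgcs1 (chr13:119690101-119690400, plus strand): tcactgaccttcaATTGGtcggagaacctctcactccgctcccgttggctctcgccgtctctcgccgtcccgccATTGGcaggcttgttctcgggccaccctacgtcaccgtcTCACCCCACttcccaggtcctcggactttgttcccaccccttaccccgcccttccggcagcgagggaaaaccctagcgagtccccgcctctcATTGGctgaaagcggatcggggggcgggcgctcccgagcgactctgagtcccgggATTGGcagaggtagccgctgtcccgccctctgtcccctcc
Idi1 (chr13:8885356-8885655, plus strand): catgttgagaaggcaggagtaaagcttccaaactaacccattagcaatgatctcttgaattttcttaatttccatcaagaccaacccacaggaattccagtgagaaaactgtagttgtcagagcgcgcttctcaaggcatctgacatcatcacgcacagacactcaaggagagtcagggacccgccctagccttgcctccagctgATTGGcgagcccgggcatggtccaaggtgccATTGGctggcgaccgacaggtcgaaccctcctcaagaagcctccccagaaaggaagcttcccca
Msmo1 (chr8:64733529-64733828, minus strand): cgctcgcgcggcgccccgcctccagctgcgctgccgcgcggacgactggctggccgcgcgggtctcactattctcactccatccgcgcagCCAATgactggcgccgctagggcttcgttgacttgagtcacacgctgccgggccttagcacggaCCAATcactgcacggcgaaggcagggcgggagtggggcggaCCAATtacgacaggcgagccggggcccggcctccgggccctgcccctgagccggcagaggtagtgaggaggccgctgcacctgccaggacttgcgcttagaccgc
Insig1 (chr5:28071162-28071461, plus strand): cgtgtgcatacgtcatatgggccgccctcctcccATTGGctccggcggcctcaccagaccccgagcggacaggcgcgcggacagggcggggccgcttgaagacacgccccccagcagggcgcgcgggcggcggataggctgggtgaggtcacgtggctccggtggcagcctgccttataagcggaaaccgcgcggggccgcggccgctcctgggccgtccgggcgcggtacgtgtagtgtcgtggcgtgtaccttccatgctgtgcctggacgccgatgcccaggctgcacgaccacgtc
Elovl4 (chr9:83806256-83806555, minus strand): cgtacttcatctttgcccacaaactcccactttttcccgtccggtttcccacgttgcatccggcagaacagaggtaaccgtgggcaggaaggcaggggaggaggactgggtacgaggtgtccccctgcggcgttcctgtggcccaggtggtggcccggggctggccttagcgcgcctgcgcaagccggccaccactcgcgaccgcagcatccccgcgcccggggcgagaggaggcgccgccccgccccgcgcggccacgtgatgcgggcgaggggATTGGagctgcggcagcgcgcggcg
The Hmgcs1 window held the element core at position -137 and ATTGG at -237, -176, -45 and 11, counted with the start base as 1. Idi1 held ATTGG at -45 and -14, Msmo1 held CCAAT at -160, -96 and -55, Insig1 held ATTGG at -216, and Elovl4 held ATTGG at 26, past the RefSeq start site. Each match is a description of letters in the window, and whether a factor bound there was not measured.

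Counts assigned to genes ranged from 9362215 to 12478838 per library, and values are given as CPM, counts scaled to the same library size with TMM factors. Records in rows that are not genes made up 74.6% to 79.8% of each table. On the first principal component of all tested genes, the P4 libraries were at -74.6 to -55.4 except replicate 2 of wild type (-16.4), while those of P8 started at 37.8, and 1 library, Kir2.1 P8 replicate 2, had counts for 31325 genes against at most 24591 in the others. Markers of several retinal cell types were present in all libraries. The summed level of 10 ganglion cell genes was 139 to 1609 CPM and that of 11 rod genes 855 to 7810 CPM.

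From P4 to P8, 6 of the 18 genes that lead from acetyl-CoA to cholesterol fell in Kir2.1 and 5 in wild type, and the very-long-chain elongase Elovl4 rose in both. In Kir2.1 retinas 13 of the 32 genes (40.6%) changed with edgeR's adjusted p under 0.05, 12 lower and 1 higher, where 16.7% of all tested genes did (8.73% lower and 7.93% higher). In wild-type retinas 8 of 32 (25%) changed, 7 lower and 1 higher, where 4.39% of all tested genes did (3.58% lower and 0.803% higher). The median log2 fold change of the 32 genes was -0.47 in Kir2.1 (all tested genes 0.00), with 25 of 32 below 0 (background 49.6%). It was -0.42 for wild-type retinas (all tested genes 0.03), with 28 of 32 below 0 (background 47.4%). The wild-type median was -0.20 when wild-type P4 replicate 1 was left out and -0.64 when replicate 2 was. The wild-type count rested on 1 library: it was 0 when wild-type P4 replicate 1 was left out and 13 when replicate 2 was. Calls over all 18188 tested genes moved the same way, from 798 to 155 and to 1357. It was also 0 when only the 5 wild-type libraries were fitted, where 133 genes of all those tested were called. The lone P4 library left in such fits is assumed to vary like the other groups.

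The age calls of the 2 genotypes rest on separate libraries in the contrasts, although the fit shares 1 estimate of the spread. The 7 genes called in both were Hmgcs1, Fdft1, Sqle, Lss, Srebf2, Scd1 and Elovl4, each in the same direction. How often calls were shared over all tested genes was not counted, so this overlap cannot be read as particular to these genes. Acat2 was called in wild type alone, and Idi1, Msmo1, Insig1, Scd2, Fads1 and Fads2 in Kir2.1 alone. A call in 1 genotype does not show that the genotypes differed: the test of that difference, given further on, called none of the 32 genes. The groups of libraries at P4 and P8 did not overlap for 22 of the 32 genes in Kir2.1 (19 lower, background 18.7%, and 3 higher, background 19.4%). In wild type they did not overlap for 18 (16 lower, background 16.9%, and 2 higher, background 14.2%).

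**Figure D1:**
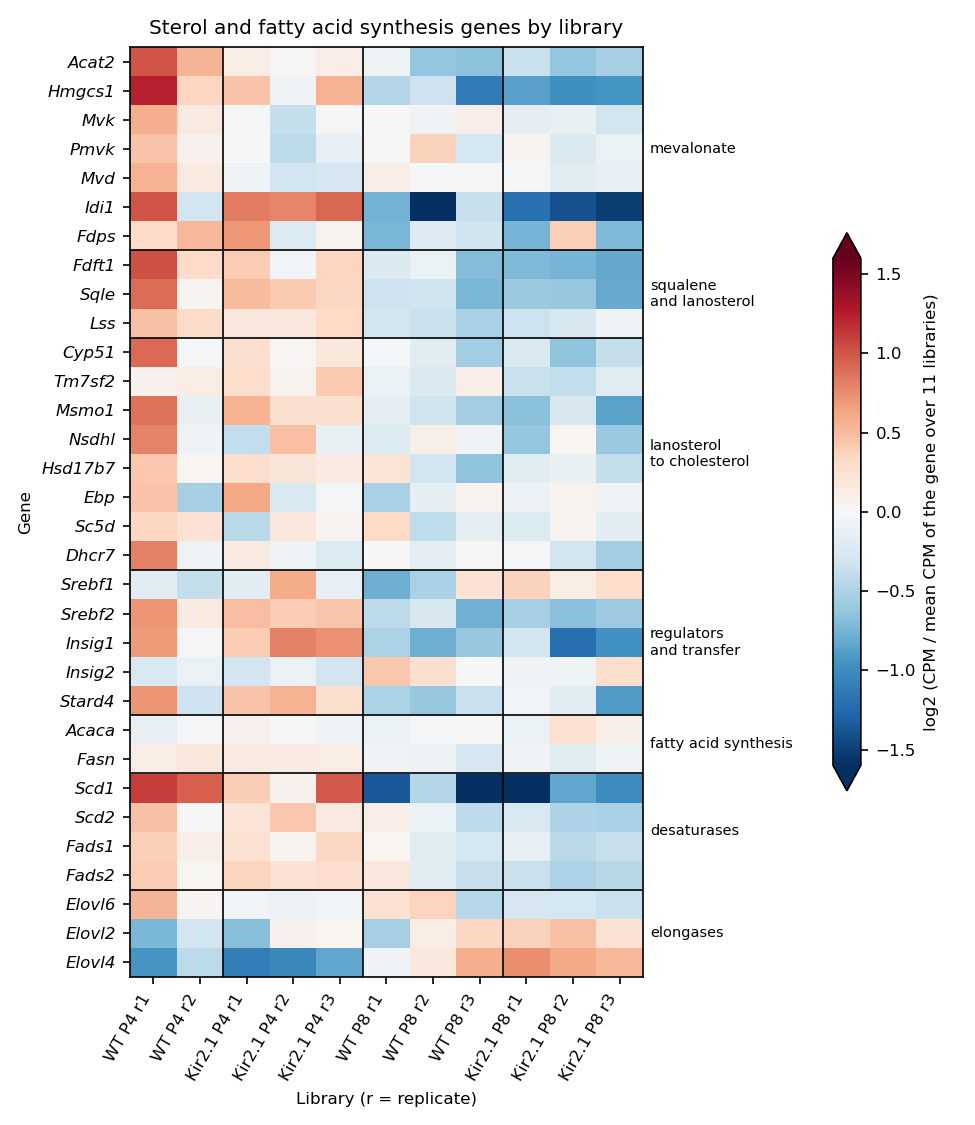
Level of the 32 genes (rows, grouped by role) in the 11 libraries (columns), as log2 of CPM over the gene's mean CPM in all libraries, with red above and blue below that mean. Most sterol rows run from red at P4 to blue at P8, wild-type P4 replicate 1 is the reddest column, and the Elovl4 row runs the other way.

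In the mevalonate pathway 2 of 7 genes fell in each genotype, Hmgcs1 in both, Acat2 in wild type and Idi1 in Kir2.1. Hmgcs1, the HMG-CoA synthase that condenses acetoacetyl-CoA with acetyl-CoA, was at 261 and 140 CPM in wild type and at 151, 106 and 162 CPM in Kir2.1 at P4, then 79.7, 87.3 and 50.8 CPM in wild type and 60, 55.9 and 56.5 CPM in Kir2.1 at P8. Every P8 library was below every P4 library. Its log2 fold change was -1.47 ± 0.27 (SE) in wild type (adjusted p = 0.00842, edgeR) and -1.28 ± 0.25 in Kir2.1 (adjusted p = 0.0046), that is, 2.76 and 2.43 times lower. Its exons overlap Gm48342 on the opposite strand over 12.1% of their length. Acat2, the thiolase that makes acetoacetyl-CoA in the cytosol, was at 42.7 and 30.8 CPM in wild type and at 22.9, 21.5 and 22.7 CPM in Kir2.1 at P4, then 20.1, 13.7 and 13.4 CPM in wild type and 16.6, 13.8 and 14.7 CPM in Kir2.1 at P8. The 2 wild-type P4 libraries were the highest of the 11. Acat2 fell by 1.22 ± 0.21 on the log2 scale in wild type (adjusted p = 0.00528, edgeR), and its value in Kir2.1 was -0.57 ± 0.19 (adjusted p = 0.0619). Of the 50-base words in the annotated transcripts of Acat2, 39.1% also occur in other genes, most of them in its neighbour Acat3, so its counts are uncertain.

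Idi1, the isomerase that interconverts the isoprenoid building blocks, had 12 to 84 counts per library. It was at 7.18 and 2.88 CPM in wild type and at 6.32, 6.14 and 6.74 CPM in Kir2.1 at P4, then 2.11, 1.02 and 2.77 CPM in wild type and 1.57, 1.36 and 1.25 CPM in Kir2.1 at P8. The 3 Kir2.1 libraries of each age lay close together, whereas wild-type P4 replicate 2 was near the P8 values. Idi1 fell by 2.19 ± 0.44 (log2, SE) in Kir2.1, or 4.56 times (adjusted p = 0.0053, edgeR), and its value in wild type was -1.35 ± 0.46 (adjusted p = 0.125). A share of 25.3% of its transcript words is also found in other genes, mainly Gm13502. The other 4 genes of the pathway, the kinases Mvk and Pmvk, the decarboxylase Mvd and the prenyl synthase Fdps, did not pass the test in either genotype. Their log2 fold changes were between -0.82 (Fdps) and -0.23 (Pmvk) in wild type and between -0.48 (Fdps) and 0.10 (Mvd) in Kir2.1, and Fdps had only 20 to 53 counts per library. Its exons overlap Gm43738 on the same strand over 26.7% of their length, so its counts are uncertain.

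All 3 genes that build squalene and close it into lanosterol fell in both genotypes. Fdft1, squalene synthase and the first enzyme committed to sterols, was at 59.6 and 36.5 CPM in wild type and at 38.9, 28.5 and 37.4 CPM in Kir2.1 at P4, then 25, 27.3 and 18.2 CPM in wild type and 18.1, 17.5 and 16.7 CPM in Kir2.1 at P8. Sqle, the squalene epoxidase, was at 76.8 and 42.8 CPM in wild type and at 58.6, 55.3 and 52.1 CPM in Kir2.1 at P4, then 33, 33.3 and 24.9 CPM in wild type and 27.4, 27.3 and 23.7 CPM in Kir2.1 at P8. Lss, the cyclase that makes lanosterol, was at 67.4 and 59.5 CPM in wild type and at 55.2, 54.8 and 60.5 CPM in Kir2.1 at P4, then 39.7, 37.9 and 34 CPM in wild type and 38.1, 40.8 and 46.2 CPM in Kir2.1 at P8. For each of the 3 genes, every P8 library was below every P4 library. Fdft1 changed by -1.03 ± 0.23 in wild type (adjusted p = 0.0239, edgeR) and by -1.0 ± 0.21 in Kir2.1 (adjusted p = 0.00738). Sqle changed by -0.98 ± 0.22 in wild type (adjusted p = 0.023, edgeR) and by -1.08 ± 0.20 in Kir2.1 (adjusted p = 0.00345). Lss changed by -0.77 ± 0.13 in wild type (adjusted p = 0.00571, edgeR) and by -0.45 ± 0.12 in Kir2.1 (adjusted p = 0.0259), and the Kir2.1 call for Lss held in 1 of 6 fits that left out 1 library, the one without Kir2.1 P8 replicate 3, with adjusted p from 0.0532 to 0.0971 in the other fits. Exons of Fdft1 overlap those of Ctsb on the opposite strand over 18.3% of their length, and the strand setting of the counting is not given in the sources used here.

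The 8 genes between lanosterol and cholesterol were all below 0 in both genotypes, by a median of -0.46 in wild type and -0.41 in Kir2.1, yet only Msmo1 passed the test, and only in Kir2.1. Msmo1, the methyl sterol oxidase, was at 55.5 and 27.8 CPM in wild type and at 44.6, 36.2 and 36.1 CPM in Kir2.1 at P4, then 27.1, 24.3 and 20.6 CPM in wild type and 19, 25.3 and 16.8 CPM in Kir2.1 at P8. The P4 and P8 ranges did not overlap in either genotype, with 27.8 CPM in wild-type P4 replicate 2 just above 27.1 CPM in wild-type P8 replicate 1. The log2 fold change of Msmo1 was -0.94 ± 0.24 in Kir2.1 (adjusted p = 0.0208, edgeR) and -0.80 ± 0.26 in wild type (adjusted p = 0.117). The Kir2.1 call for Msmo1 held in 3 of 6 fits that left out 1 library, and failed without Kir2.1 P4 replicate 1 (adjusted p = 0.0763), P8 replicate 1 (0.0746) or P8 replicate 3 (0.0887). Cyp51, the lanosterol demethylase, stood at -0.75 ± 0.24 in wild type and -0.56 ± 0.22 in Kir2.1. Dhcr7, which reduces a ring double bond at the end of the pathway, was at -0.48 ± 0.24 and -0.24 ± 0.22. Tm7sf2, a C14 sterol reductase, was at -0.17 ± 0.21 and -0.57 ± 0.19. Nsdhl, Hsd17b7, Ebp and Sc5d, which act on the C4 methyl groups and the ring double bonds, were between -0.48 and -0.23 in wild type and between -0.42 and -0.07 in Kir2.1.

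**Figure D2:**
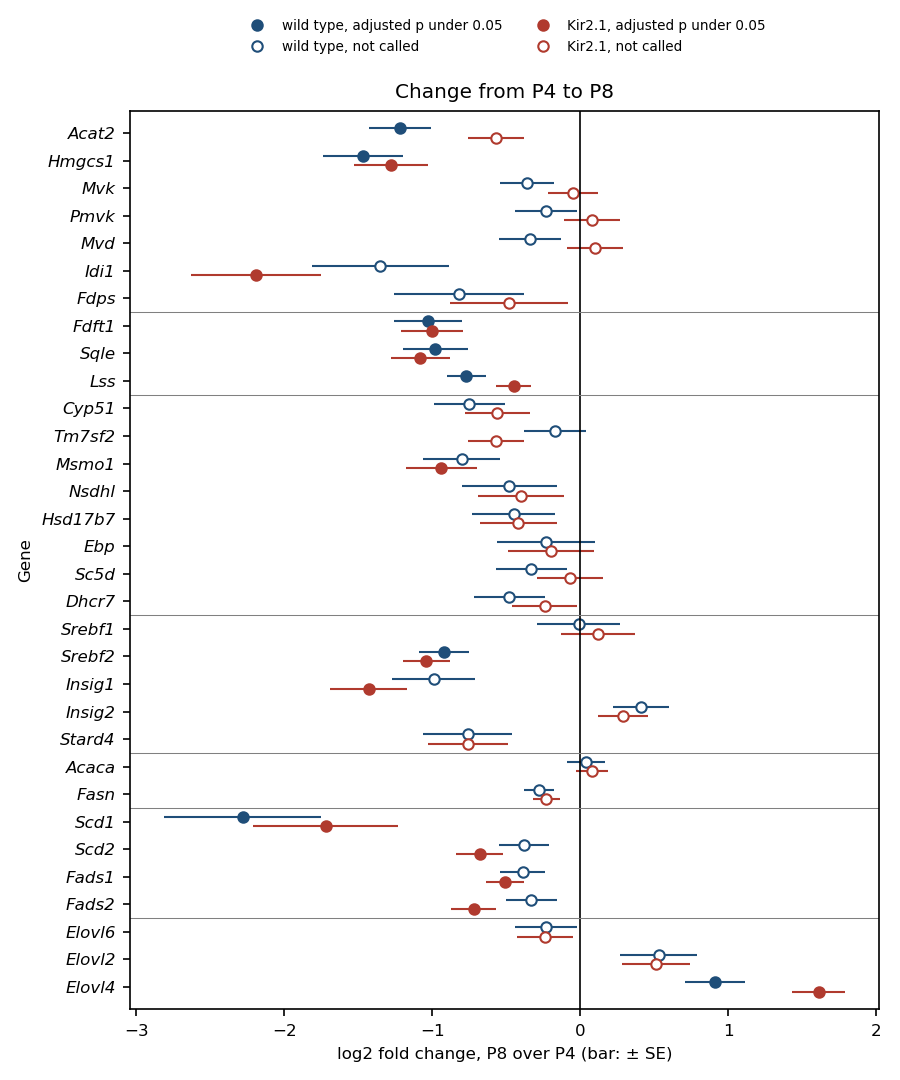
Log2 fold change from P4 to P8 with its standard error for each of the 32 genes, in wild type (blue) and Kir2.1 (red), filled where edgeR's adjusted p was under 0.05. Points left of 0 have lower values at P8: 28 of 32 in wild type, 7 of them filled, and 25 of 32 in Kir2.1, 12 of them filled, with Scd1 and Idi1 farthest left and Elovl4 farthest right.

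Among the regulators, the activator Srebf2 fell in both genotypes and the sterol-responsive brake Insig1 in Kir2.1. Srebf2, which encodes SREBP-2, was at 243 and 165 CPM in wild type and at 209, 198 and 203 CPM in Kir2.1 at P4, then 111, 125 and 87.2 CPM in wild type and 103, 94 and 99.4 CPM in Kir2.1 at P8. All 6 P8 libraries were below all 5 P4 libraries. Srebf2 changed by -0.92 ± 0.17 in wild type (adjusted p = 0.0084, edgeR) and by -1.04 ± 0.16 in Kir2.1 (adjusted p = 0.00104), where it was 2.06 times lower at P8. Insig1, the anchor that is itself a target of SREBP-2, was at 27.4 and 16.7 CPM in wild type and at 22.7, 30 and 28.3 CPM in Kir2.1 at P4, then 12, 10 and 11.2 CPM in wild type and 13.8, 7.41 and 8.75 CPM in Kir2.1 at P8. Again no P8 library reached a P4 library. Insig1 fell by 1.43 ± 0.26 in Kir2.1 (adjusted p = 0.00304, edgeR), and its value in wild type was -0.99 ± 0.28 (adjusted p = 0.068). Its relative Insig2 did not pass the test and had positive values, 0.41 ± 0.19 in wild type and 0.29 ± 0.17 in Kir2.1. Stard4, a soluble carrier of cholesterol, was at -0.76 in both genotypes with SEs of 0.30 and 0.27 and did not pass the test.

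Srebf1, which encodes SREBP-1, passed the test in neither genotype. Its level was 75.1 and 65.1 CPM in wild type and 74.9, 128 and 77.4 CPM in Kir2.1 at P4, then 49.4, 59.5 and 99.7 CPM in wild type and 110, 92.2 and 103 CPM in Kir2.1 at P8. Kir2.1 P4 replicate 2 and wild-type P8 replicate 3 each stood above the other libraries of their group. With age it changed by -0.01 ± 0.28 in wild type and by 0.12 ± 0.25 in Kir2.1 (log2, SE). Per kilobase of exon, the mean level of Srebf2 in wild type was 28.4 CPM per kb at P4 and 15 at P8, against 12.4 and 12.3 CPM per kb for Srebf1. In Kir2.1 these levels were 28.4 and 13.8 CPM per kb for Srebf2 and 16.6 and 18 CPM per kb for Srebf1.

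Neither of the 2 genes that build palmitate passed the test with age. Fasn, the fatty acid synthase, was at 417 and 435 CPM in wild type and at 421, 422 and 417 CPM in Kir2.1 at P4, then 370, 361 and 320 CPM in wild type and 372, 336 and 368 CPM in Kir2.1 at P8. The ages did not overlap for Fasn, but its log2 fold change was only -0.28 ± 0.10 in wild type (adjusted p = 0.152, edgeR) and -0.23 ± 0.09 in Kir2.1 (adjusted p = 0.123). Acaca, the carboxylase that supplies malonyl-CoA, was at 70.5 to 91.6 CPM over all 11 libraries, with log2 fold changes of 0.04 ± 0.13 and 0.08 ± 0.11. A share of 30.4% of the transcript words of Acaca also occurs in other genes, mainly Gm5182.

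All 4 desaturases fell in Kir2.1, and Scd1 also in wild type. Scd1, a stearoyl-CoA desaturase that makes monounsaturated fatty acids, was at 9.58 and 8.63 CPM in wild type and at 5.86, 4.68 and 8.84 CPM in Kir2.1 at P4, then 1.74, 3.23 and 0.651 CPM in wild type and 1.16, 2.5 and 2.23 CPM in Kir2.1 at P8. Every P8 library was below every P4 library for Scd1, on 8 to 112 counts each. Scd1 fell by 2.28 ± 0.53 in wild type (4.84 times, adjusted p = 0.0296, edgeR) and by 1.72 ± 0.49 in Kir2.1 (3.29 times, adjusted p = 0.0328). Scd2, its paralog and the main stearoyl-CoA desaturase of nervous tissue, was far more abundant, at 110 CPM per kb in wild type at P4 against 1.86 for Scd1. Scd2 was at 693 and 505 CPM in wild type and at 580, 677 and 556 CPM in Kir2.1 at P4, then 539, 468 and 377 CPM in wild type and 423, 358 and 350 CPM in Kir2.1 at P8. The ages overlapped in wild type and not in Kir2.1. The log2 fold change of Scd2 was -0.68 ± 0.16 in Kir2.1 (adjusted p = 0.0114, edgeR) and -0.38 ± 0.17 in wild type (adjusted p = 0.255).

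Fads1 and Fads2 are the delta-5 and delta-6 desaturases that lead to arachidonic and docosahexaenoic acid. Fads2 was at 80.2 and 61 CPM in wild type and at 77.5, 70.6 and 72.5 CPM in Kir2.1 at P4, then 68.5, 53.1 and 46.7 CPM in wild type and 47.2, 42.7 and 44.3 CPM in Kir2.1 at P8. Fads1 was at 119 and 98.3 CPM in wild type and at 108, 95.6 and 115 CPM in Kir2.1 at P4, then 93.5, 80 and 75.7 CPM in wild type and 83.3, 68.2 and 71 CPM in Kir2.1 at P8. For Fads1 the ages were apart in both genotypes, and for Fads2 in Kir2.1 only. In Kir2.1, Fads2 changed by -0.72 ± 0.15 (adjusted p = 0.00731, edgeR) and Fads1 by -0.51 ± 0.13 (adjusted p = 0.0195). In wild type their values were -0.33 ± 0.17 and -0.39 ± 0.15, with adjusted p of 0.308 and 0.162. The Kir2.1 call for Fads2 held in all 6 fits that left out 1 library, that for Scd2 in 4, that for Fads1 in 2 and that for Scd1 in 1. Where a call was lost, the adjusted p ranged from 0.051 (Scd2 without Kir2.1 P4 replicate 2) to 0.119 (Scd1 without Kir2.1 P4 replicate 3).

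Of the 3 elongases only Elovl4 passed the test, in both genotypes. Elovl4, which makes the very long chains used in photoreceptor membranes, was at 81.3 and 117 CPM in wild type and at 72.7, 76.7 and 88.1 CPM in Kir2.1 at P4, then 151, 175 and 233 CPM in wild type and 261, 238 and 226 CPM in Kir2.1 at P8. Every P8 library was above every P4 library. Elovl4 rose by 1.61 ± 0.18 on the log2 scale in Kir2.1 (3.05 times, adjusted p = 0.000174, edgeR) and by 0.91 ± 0.20 in wild type (1.88 times, adjusted p = 0.0209). Per kilobase of exon it went from 26.2 to 79.9 CPM per kb in Kir2.1. Elovl2, which lengthens polyunsaturated chains before Elovl4 does, was at 48 and 64.6 CPM in wild type and at 49.8, 84 and 82.1 CPM in Kir2.1 at P4, then 55.6, 87.2 and 101 CPM in wild type and 103, 111 and 94 CPM in Kir2.1 at P8. Its values overlapped between ages in wild type and were apart in Kir2.1. Elovl2 had a log2 fold change of 0.53 ± 0.26 in wild type (adjusted p = 0.304, edgeR) and of 0.51 ± 0.23 in Kir2.1 (adjusted p = 0.164). Elovl6, which lengthens palmitate, was at -0.23 ± 0.21 and -0.24 ± 0.19 and did not pass the test.

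**Figure D3:**
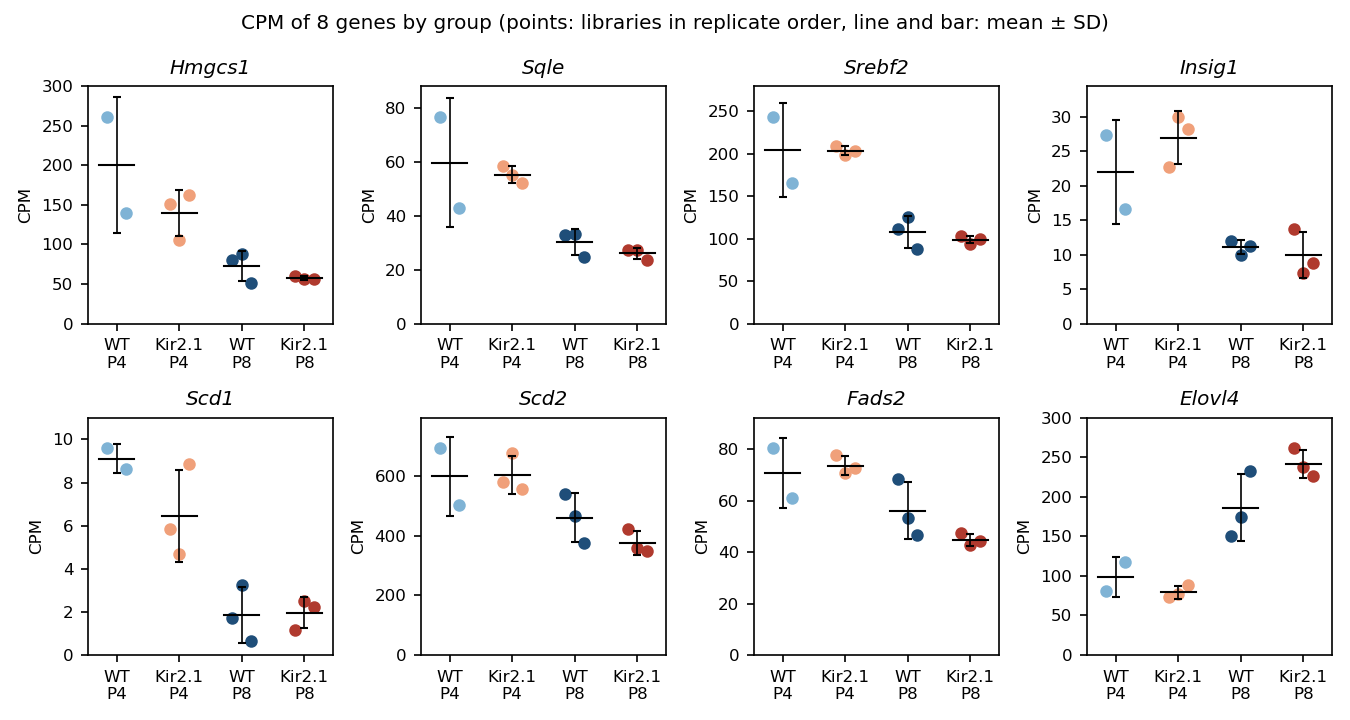
CPM of Hmgcs1, Sqle, Srebf2, Insig1, Scd1, Scd2, Fads2 and Elovl4 in each library by group, with the group mean (line) and SD (bar). The P8 points lie below the P4 points for Hmgcs1, Sqle, Srebf2, Insig1 and Scd1, the wild-type ages overlap for Scd2 and Fads2, and for Elovl4 the P8 points are all at 151 CPM or more and the P4 points at most 117.

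Cell type markers moved with age alongside these genes. The summed level of the 10 genes of dividing progenitors was 2602 and 959 CPM in wild type and 2699, 2174 and 2197 CPM in Kir2.1 at P4, and 108 to 158 CPM in the 6 P8 libraries, with all 10 genes called lower in both genotypes and none at 0 in any library. Ganglion cell genes summed to 1609 and 1049 CPM in wild type and 789, 342 and 852 CPM in Kir2.1 at P4, and 139 to 380 CPM at P8, with 9 of 10 called lower in both genotypes and Pou4f3 at 0 in 2 of the 11 libraries. Rod genes summed to 855 and 1864 CPM in wild type and 952, 1288 and 1122 CPM in Kir2.1 at P4, and to 1457, 3782 and 7810 CPM in wild type and 7665, 7173 and 7793 CPM in Kir2.1 at P8. All 11 rod genes were above 0 in both genotypes, with a median of 3.11 in Kir2.1, where all 11 were called, and 2.17 in wild type, where none was. Mueller glia genes summed to 1357 to 1951 CPM at P4 and 984 to 1640 CPM at P8, of which 1 of 10 rose and 2 fell with age in Kir2.1 and 0 in wild type. In bulk retina, fewer cells of a type and less RNA per cell cannot be told apart, and the part of the change in cell types in the fall of the sterol genes and the rise of Elovl4 was not tested.

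The 2 wild-type P4 libraries differed from each other in these genes. Replicate 1 was higher than replicate 2 in 25 of the 32 genes, with a median ratio of 1.34, and in 16 of the 18 genes from acetyl-CoA to cholesterol, with a median ratio of 1.51. Over all tested genes the median ratio was 1.0. Replicate 1 was the highest of all 11 libraries for 22 of the 32 genes and for 15 of the 18. The summed level of the 18 was 858 and 530 CPM in the wild-type P4 libraries, 577, 486 and 565 CPM in Kir2.1 at P4, 410, 401 and 329 CPM in wild type at P8 and 345, 339 and 326 CPM in Kir2.1 at P8. With replicate 1 left out, all 8 wild-type age calls were lost. The log2 fold changes were then -0.95 for Hmgcs1 (adjusted p = 0.226, edgeR), -0.97 for Acat2 (0.134), -0.63 for Fdft1 (0.511), -0.49 for Sqle (0.535), -0.62 for Srebf2 (0.213) and 0.67 for Elovl4 (0.369). Those of Lss (-0.68, 0.118) and Scd1 (-2.20, 0.252) stayed near their values from all libraries. With replicate 2 left out, Idi1 (-1.86), Cyp51 (-1.14), Msmo1 (-1.21), Dhcr7 (-0.86), Insig1 (-1.31) and Stard4 (-1.19) were called as well, and Scd1 was not (adjusted p = 0.0504). Sqle lost its wild-type call without P8 replicate 2 (adjusted p = 0.0509) or P8 replicate 3 (0.0535), and Fdft1 without P8 replicate 3 (0.053). In Kir2.1, leaving out any 1 library kept 9 to 11 calls, and Hmgcs1, Idi1, Fdft1, Sqle, Srebf2, Insig1, Fads2 and Elovl4 were called in all 6 such fits.

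Kir2.1 was then compared with wild type at each age. Whether the controls carried Cre is not known, so effects of the channel and of Cre cannot be told apart. At P4 none of the 32 genes passed the test, and 0% of all tested genes did. An unadjusted p under 0.05 was found for 3 of the 32 genes, a share near the 7.22% of all tested genes in either direction. These were Acat2 at -0.72 ± 0.21, Mvd at -0.57 ± 0.21 and Mvk at -0.51 ± 0.18, each with an adjusted p of 0.677 (edgeR). Mvk was at 31.4 and 23.3 CPM in wild type and 20.7, 16.2 and 20.6 CPM in Kir2.1. Mvd was at 15.7 and 11.8 CPM in wild type and 10.2, 8.67 and 8.92 CPM in Kir2.1. The genotypes did not overlap for these 3 and for Pmvk, Sc5d and Elovl6, 6 genes in all and each lower in Kir2.1, where 14.4% of all tested genes were apart and lower. Of the 32 genes 22 were below 0 (background 48.7%), with a median of -0.10 against 0.01 over all tested genes. Leaving out wild-type P4 replicate 1 gave a median of 0.07, and leaving out replicate 2 gave -0.26. Of the cell type markers none passed the test at P4, where all 10 ganglion cell genes were below 0 (median -1.32), and the summed ganglion cell level of every Kir2.1 P4 library was below that of both wild-type P4 libraries. Of the 9 bipolar genes 8 were below 0 (median -1.92), and all 10 progenitor genes were above 0 (median 0.31), but in both sums only wild-type P4 replicate 2 stood apart (bipolar 586 CPM against 276 to 316 CPM in the other 4 P4 libraries). Of the 9 vascular genes 8 were below 0 (median -1.07), while their sums overlapped, at 581 and 459 CPM in wild type and 614, 751 and 449 CPM in Kir2.1. All 8 microglia genes were above 0 (median 0.25), and their sums overlapped too, at 347 and 194 CPM in wild type and 369, 247 and 412 CPM in Kir2.1. The part of these cell types in the values of the 32 genes was not tested. DESeq2, which called 34 of all tested genes, and voom, which called 0, called none of the 32 either.

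At P8, again, 0 of the 32 genes passed the test, with 0% of all tested genes called. Elovl4 alone of the 32 had an unadjusted p under 0.05 (0.0485, background 6.82%), at 0.38 ± 0.17 with an adjusted p of 0.699 (edgeR). Its 3 Kir2.1 libraries (261, 238 and 226 CPM) overlapped wild-type P8 replicate 3 (233 CPM) and were above the other two (151 and 175 CPM). The highest difference was that of Srebf1, 0.55 ± 0.25 with a 95% interval from -0.01 to 1.10 (unadjusted p = 0.0519, adjusted p = 0.699), where wild-type P8 replicate 3 at 99.7 CPM lay among the Kir2.1 values. Idi1 was lowest, at -0.49 ± 0.45, and Fdft1 was at -0.43 ± 0.21. Mvk and Fdft1 had no overlap between the genotypes, both lower in Kir2.1 (background 5.11% lower). Of the 32 genes 22 were below 0 (background 49.4%), with a median of -0.14 against 0.00 over all tested genes. Of the cell type markers none passed the test at P8 either. All 11 rod genes (median 0.89), all 9 bipolar genes (0.19) and all 8 microglia genes (0.42) were above 0, and all 9 amacrine (-0.42) and all 10 ganglion cell genes (-0.24) below 0. The 6 tested pigment epithelium genes were also all above 0 (median 1.34). Sums of that list were low, at 23, 24.8 and 28.1 CPM in wild type and 29.5, 54.4 and 22.9 CPM in Kir2.1. The genotypes overlapped in the summed level of each of these lists, and the part of these cell types in the values of the 32 genes was not tested. With no filter on low counts, Srebf1 was called (0.54, adjusted p = 0.0415, edgeR), as were 447 of all 36534 genes in that fit. DESeq2, which called 3 of all tested genes, and voom, which called 0, called none of the 32 at P8.

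Wild-type P8 replicate 3 stood apart from the other two in its rod sum (7810 CPM against 1457 and 3782 CPM), at the level of the Kir2.1 libraries (7173 to 7793 CPM). Without it 256 of all tested genes were called at P8 and still none of the 32. The nearest were then Srebf1 at 0.91 (adjusted p = 0.0568, edgeR), Elovl6 at -0.59 (0.0587) and Elovl4 at 0.57 (0.0744). Whether the rod sum bears on these values was not tested.

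**Figure D4:**
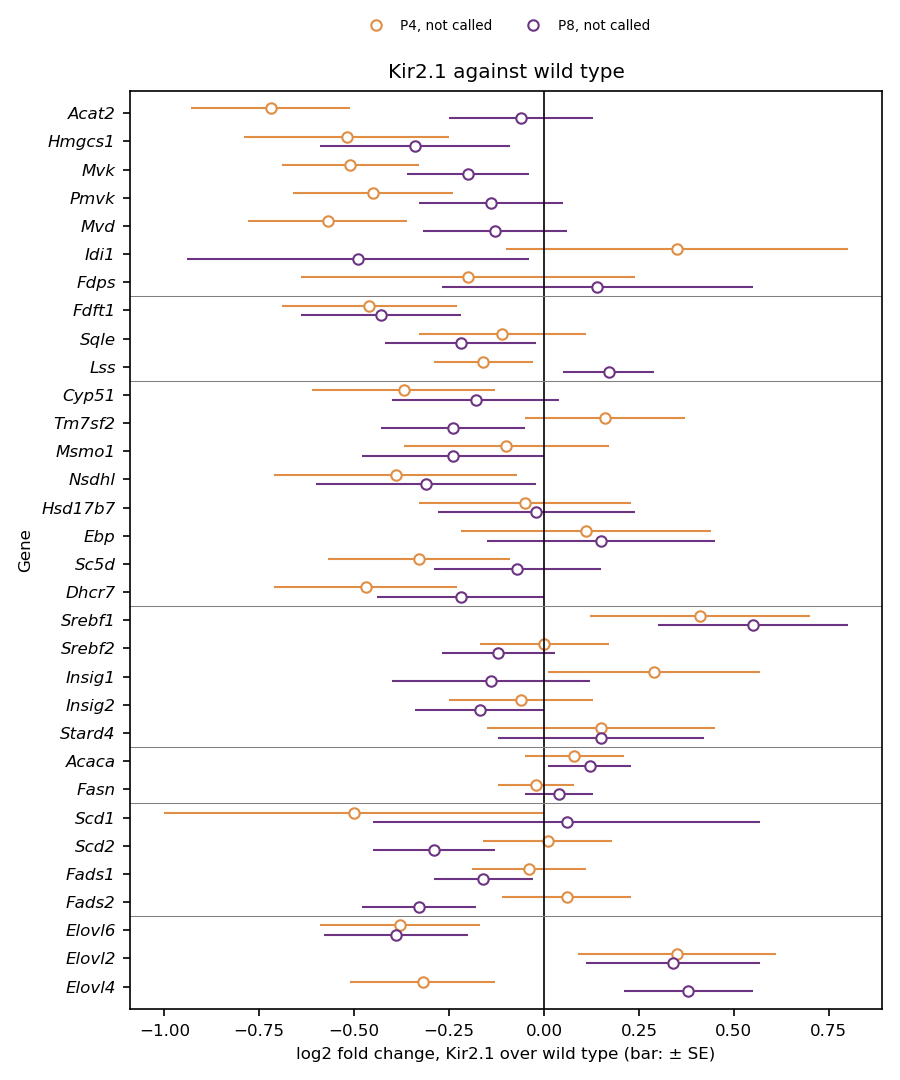
Genotype difference (log2 of Kir2.1 over wild type, with its standard error) for each of the 32 genes at P4 (orange) and P8 (purple), where open points mark genes that did not pass the test. No gene passed at either age, and 22 of the 32 points lie left of 0 at each age.

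The authors' deposited tables give their own comparison of the genotypes at each age. At P4 the authors' deposited table called none of the 32 genes (2.27% of 13830 genes with an adjusted p were called), with Stard4 nearest at an adjusted p of 0.0527 and a log2 fold change of 1.12. There, 20 of the 32 genes were above 0, with a median of 0.09, against 10 of 32 above 0 and a median of -0.10 in the edgeR fit, which was 0.07 without wild-type P4 replicate 1. At P8 the authors' deposited table called 4 of the 30 members with an adjusted p, where 7.27% of 13396 genes were called. These were, in the authors' deposited table, Srebf1 (0.89 ± 0.19, adjusted p = 0.000385), Elovl4 (0.59 ± 0.16, 0.00883), Elovl6 (-0.62 ± 0.17, 0.0104) and Hmgcs1 (-0.55 ± 0.17, 0.0276). The edgeR values of the same 4 genes from all libraries were 0.55, 0.38, -0.39 and -0.34, all of the same sign and smaller. Without wild-type P8 replicate 3 the edgeR values of Srebf1, Elovl4, Elovl6 and Hmgcs1 were 0.91, 0.57, -0.59 and -0.53, near those of the authors' deposited table, with adjusted p from 0.0568 to 0.231 (edgeR). Which libraries entered the authors' tables is not given in the sources used here.

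The difference between the genotype effects at P8 and at P4 was tested directly, and none of the 32 genes passed (0% of all tested genes, smallest adjusted p among the 32 of 1). An unadjusted p under 0.05 was found for 2 genes (background 3.09%). These were Elovl4, at 0.70 ± 0.26 (unadjusted p = 0.0183), and Acat2, at 0.65 ± 0.28 (unadjusted p = 0.0409). Both move from a negative value at P4 toward or past 0 at P8: Elovl4 from -0.32 to 0.38 and Acat2 from -0.72 to -0.06. The same 2 differences are the differences between the age changes of Kir2.1 and wild type, since they come from the same 4 group means. For Srebf2 the genotype values were 0.00 ± 0.17 at P4 (95% interval -0.38 to 0.37) and -0.12 ± 0.15 at P8 (95% interval -0.46 to 0.21).

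**Figure D5:**
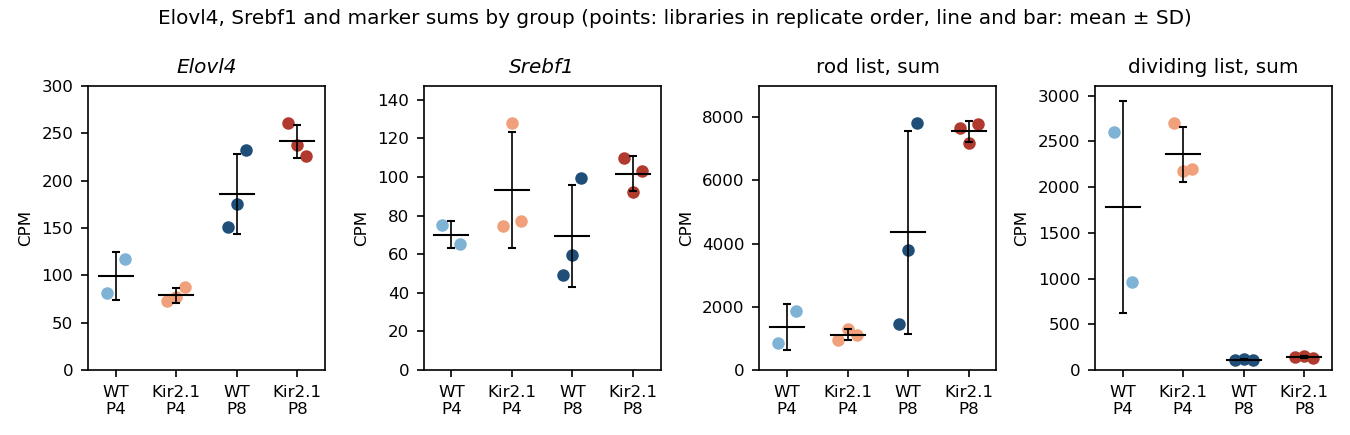
CPM of Elovl4 and Srebf1 beside the summed CPM of 11 rod genes and 10 genes of dividing progenitors in each library by group, with group mean (line) and SD (bar). The wild-type P8 libraries are spread widely for Elovl4, Srebf1 and the rod sum, and the dividing sum is at most 158 CPM at P8.

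Other genes of sterol and fatty acid metabolism, 53 in number and from SREBP processing, acetyl-CoA supply, the isoprenoid branch, sterol conversion and transport, and fatty acid chain handling, were counted in the same fit, and 51 were tested. None passed between the genotypes at either age. In wild type 1 rose and 1 fell with age (3.92% of 51, near the 4.39% of all tested genes), and in Kir2.1 11 rose and 5 fell (31.4%, against 16.7%, 7.93% higher and 8.73% lower, of all tested genes), with a median of 0.10. Gramd1b, which moves cholesterol from the plasma membrane to the endoplasmic reticulum, rose by 1.39 ± 0.18 in Kir2.1 (adjusted p = 0.000369, edgeR) and by 0.98 ± 0.20 in wild type (adjusted p = 0.0144). Abcg4, a sterol exporter, rose by 1.26 ± 0.20 and Acsl6, an acyl-CoA synthetase for polyunsaturated fatty acids, by 0.98 ± 0.16 in Kir2.1. Lbr, a nuclear envelope protein with the same C14 reductase activity as Tm7sf2, fell by 1.37 ± 0.23 in Kir2.1 (adjusted p = 0.0019, edgeR) and by 1.20 ± 0.25 in wild type (adjusted p = 0.0153). Npc2, which hands cholesterol out of lysosomes, fell by 0.89 ± 0.20 and Fabp5, a fatty acid binding protein, by 0.79 ± 0.19 in Kir2.1. Lbr was at 80.4 and 45 CPM in wild type and 74, 81.2 and 76.7 CPM in Kir2.1 at P4, then 28, 19.4 and 34.5 CPM in wild type and 26.8, 30.8 and 32.1 CPM in Kir2.1 at P8.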

How the data were processed

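Gene counts in whole numbers, deposited by the authors as 1 table a library, were analysed, together with the table of their own genotype comparison at each age. The submitters' processing notes name mm10, cutadapt 1.18, SAMtools 1.9, bedtools 2.26.0, STAR 2.5.0c, HTSeq 0.6.1 and DESeq2, without roles; annotation release and strand setting are not given in the sources used here. Per the file headers, the authors' tables hold the mean normalized count (a signal), the log2 fold change and its SE, a statistic (a score) and raw and adjusted p-values. Rows that name no gene entered neither library sizes nor tests.

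Libraries were grouped by title. Counts were fitted with edgeR 4.0.16 in R 4.3.3 (filterByExpr, TMM factors 0.964 to 1.05, quasi-likelihood test on 4 group means over all 11 libraries, common BCV 0.247, residual df 7), after a test on simulated data. Benjamini-Hochberg adjustment covered all 18188 genes tested, and an adjusted p under 0.05 counted as called. With 2 or 3 libraries a group, the median SE of a log2 fold change of the 32 genes was 0.21 to 0.22 for the age and genotype contrasts, and intervals are 95% intervals from a t distribution. Exon lengths and overlaps came from GENCODE mouse release M21 (GRCm38), which held 46574 of the 47069 IDs. The members and lists were chosen with earlier results of these data known. Values in every library are given for each member called in a comparison and for Srebf1, Fasn and Elovl2, and at most the 3 highest and 3 lowest called genes of the other pathway genes are named. Of 12 marker lists, summed as CPM, rod, dividing progenitor, ganglion and Mueller glia lists are described beside the age results. Beside the genotype results, bipolar, vascular, amacrine, microglia and pigment epithelium lists are given as well. In Kir2.1 with age, 9 of 9 bipolar, 3 of 8 cone, 3 of 9 amacrine, 4 of 9 vascular and 1 of 5 astrocyte genes were called higher, and 3 amacrine, 1 vascular and 1 of 6 tested pigment epithelium genes lower. In wild type with age, 1 bipolar and 1 amacrine gene were called higher. No microglia or lens gene was called, though all 8 microglia genes were below 0 with age (median log2 fold change -1.12 in wild type and -0.94 in Kir2.1). Alternatives were DESeq2 1.42.0 size factors and test, limma 3.58.1 voom with sample weights, 2 other filters, the compared groups alone, a replicate block and leaving out each library.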

Additional observations from a re-analysis of the deposited data

How the results depend on the processing

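Between the genotypes, the count of the 32 genes called was 0 under every alternative at P4 and for the difference between ages, and at P8 under all but 1: with no filter on low counts it was 1 (Srebf1). With age in wild type the count of 8 became 0 when only the wild-type libraries were fitted, ranged from 0 to 13 when 1 library was left out, and was 6 to 11 under the other settings. With age in Kir2.1 the count of 13 was 9 to 11 when 1 library was left out and 13 to 17 otherwise. The cause of these shifts was not tested. No gene called with all libraries and the main settings changed sign under an alternative. Same-numbered libraries of different groups deviated from their group means with correlations from -0.08 to 0.14, so the numbers do not pair the samples. With a replicate block the counts were 0 at P4, 0 at P8 and 0 for the difference between ages, 6 with age in wild type and 14 with age in Kir2.1. Idi1, Fdps and Scd1 have low counts, which limits what can be shown for them.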
